A study of Mus musculus with 17 samples.

Results

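The genes described here steer resting T cells to lymph nodes, keep them alive between encounters with antigen and set how readily they are activated. The list holds Ccr7, Il7r, Tcf7, Lef1, Klf2, S1pr1, Cd27, Cd28 and Btla, and each was read from the probe set that carries its symbol alone and has the highest mean over all 17 arrays. A probe set is the group of short probes that reads a transcript on the array. Under this rule 8 of the 9 genes had a probe set, out of 18193 genes in all, and Tcf7 was not analysed here. All 8 lay above the filter on low values, which kept 12696 genes.

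Whole blood was taken from female C57BL/6JJcl mice, an inbred strain, aged 8 weeks, 24 h after exposure of the whole body to X-rays. The groups were 5 unirradiated control mice (0 Gy) and, in order of dose, 0.5 Gy, 1.0 Gy and 3.0 Gy mice, 4 per dose. Every mouse had its own array, and the labels name no other treatment. Levels are the log2 values deposited by the authors, so that a difference of 1 is a 2-fold change. A ± after a group mean is the SD, with n = 5 in controls and n = 4 at a dose. Differences were tested with limma over all 12696 genes, and a gene was called at an adjusted p under 0.05.

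Naive T cells, which have not yet met their antigen, circulate between blood and lymph nodes. CCR7 is the chemokine receptor that brings them into the node, and S1PR1, a receptor for the lipid sphingosine 1-phosphate, lets them leave again, while the transcription factor KLF2 drives S1pr1. Their survival depends on interleukin-7, read through IL7R, and their resting state on transcription factors such as LEF1. CD28 and CD27 are costimulatory receptors and BTLA is an inhibitory one. Most of these genes are not restricted to T cells, since B cells also carry CCR7, S1PR1, KLF2 and BTLA.

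RefSeq start-site windows of GRCm38.p6, which run from 250 bases before to 50 bases after an annotated start, matched 5 of the 8 genes by symbol. The windows of the 3 matched genes with the largest falls at 3.0 Gy are shown, chosen by the size of the fall alone. They are Btla at chr16:45224087-45224386 on the plus strand, Il7r at chr15:9529827-9530126 on the minus strand and Klf2 at chr8:72318812-72319111 on the plus strand. Capitals mark the motif matches described after the sequences.
Btla: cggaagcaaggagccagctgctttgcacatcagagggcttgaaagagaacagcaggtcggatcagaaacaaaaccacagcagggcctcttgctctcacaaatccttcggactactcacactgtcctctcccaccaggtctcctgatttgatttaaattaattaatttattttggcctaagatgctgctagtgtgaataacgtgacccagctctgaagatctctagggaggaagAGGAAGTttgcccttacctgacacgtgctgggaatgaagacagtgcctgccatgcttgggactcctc
Il7r: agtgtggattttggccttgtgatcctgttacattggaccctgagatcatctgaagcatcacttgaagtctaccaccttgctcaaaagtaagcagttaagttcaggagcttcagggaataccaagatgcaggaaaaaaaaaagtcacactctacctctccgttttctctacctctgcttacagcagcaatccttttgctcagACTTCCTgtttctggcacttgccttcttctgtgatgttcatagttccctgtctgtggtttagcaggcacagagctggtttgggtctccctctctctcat
Klf2: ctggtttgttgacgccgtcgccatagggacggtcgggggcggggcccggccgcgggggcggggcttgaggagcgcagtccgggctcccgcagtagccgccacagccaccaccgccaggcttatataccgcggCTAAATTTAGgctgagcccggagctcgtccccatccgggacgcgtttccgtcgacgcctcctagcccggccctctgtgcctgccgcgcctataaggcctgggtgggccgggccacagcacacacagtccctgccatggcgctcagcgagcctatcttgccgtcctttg

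The motifs were searched on both strands. An ETS motif spelled ACTTCCT, or AGGAAGT on the other strand, starts at position -17 relative to the annotated start of Btla and at -49 of Il7r. It also lies at -13 of 1 annotated start of Lef1. It is held by 9.35% of all 32851 windows of this length. The palindromic MEF2 motif in capitals in the Klf2 window starts at position -118 and occurs in 0.0396% of windows. The ETS and MEF2 motifs were chosen after these windows had been read. The letters GTAAACA of a forkhead motif (in 3.65% of windows), CACACCC of a KLF motif (7.95%) and CTTTGAT of a TCF/LEF motif (3.73%) are not in any of the 8 windows of the 5 genes. The searches describe letters in these windows and say nothing of binding.

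All 8 genes were lower in blood 24 h after 3.0 Gy than in control blood. Btla, the inhibitory receptor, fell most, 13.2-fold, followed by the homing receptor Ccr7 (5.55-fold), the egress receptor S1pr1 (4.56-fold) and Il7r (4.28-fold). Klf2, Lef1 and Cd27 fell 3.05-, 2.99- and 2.83-fold, and the costimulatory receptor Cd28 fell least (1.54-fold). At the lower doses few genes passed the test: S1pr1 fell at 0.5 Gy, and S1pr1 and Cd27 fell at 1.0 Gy. In whole blood, fewer cells of a type and less RNA per cell cannot be told apart.

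Of the 8 genes, 8 were called lower at 3.0 Gy against control, where 29.2% of all genes tested were called lower. Of these, 7 fell at least 2-fold, against 11.1% of all genes, and 7 had every 3.0 Gy mouse below every control mouse, against 22.9% of all genes. The median difference over the 8 genes was -1.85 on the log2 scale, and over all genes it was 0.04. At 0.5 Gy 1 of 8 was called lower (background 5%) and 0 of 8 were without overlap (background 4.54%), with a median of -0.45, and at 1.0 Gy 2 of 8 were called lower (background 8.49%), with a median of -0.53. The medians over all genes were -0.02 at 0.5 Gy and -0.04 at 1.0 Gy.

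**Figure D1:**
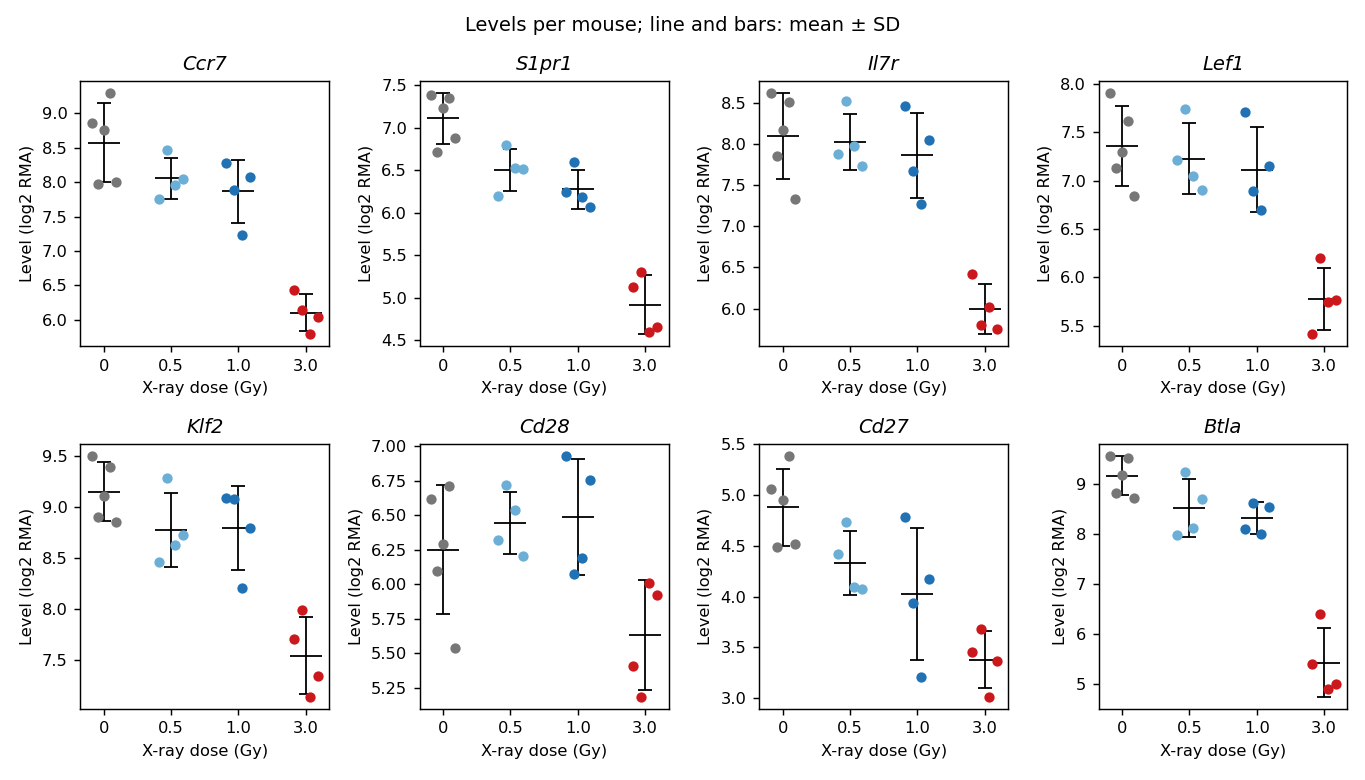
Level of each of the 8 genes (log2 RMA value, y axis) in each mouse by X-ray dose in Gy (x axis), with dose 0 as control; points are mice and the black line and bars are the mean ± SD. The 3.0 Gy mice lie below all control mice in 7 genes and overlap them in Cd28.

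Ccr7 (probe set 1423466_at) encodes the receptor for the lymph node chemokines CCL19 and CCL21. Its levels were 6.44, 6.15, 5.79 and 6.04 in 3.0 Gy mice, against 8.86, 7.97, 8.75, 9.30 and 8.00 in control mice. The difference was -2.47 ± 0.25 (SE, adjusted p = 2.867e-07), and the groups did not overlap. Its levels at 0.5 Gy were 7.76, 8.47, 7.96 and 8.05, and at 1.0 Gy 8.28, 7.88, 7.23 and 8.07. Both doses overlapped the controls, and neither difference passed: -0.52 ± 0.25 at 0.5 Gy (SE, adjusted p = 0.2431) and -0.71 ± 0.25 at 1.0 Gy (SE, adjusted p = 0.06207). Ccr7 was called at 1.0 Gy without control replicate 2 or 5 or 1.0 Gy replicate 1 (adjusted p down to 0.0213).

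S1pr1 (probe set 1423571_at) was the gene of the 8 that was called at every dose. Its levels were 5.13, 5.30, 4.60 and 4.66 in 3.0 Gy mice, against 7.38, 6.71, 7.22, 7.34 and 6.88 in control mice, a difference of -2.19 ± 0.18 (SE, adjusted p = 2.536e-08). At 1.0 Gy its levels of 6.25, 6.59, 6.18 and 6.07 also lay below every control (-0.84 ± 0.18 SE, adjusted p = 0.001941). At 0.5 Gy 1 of the levels of 6.19, 6.79, 6.52 and 6.51 lay within the control range (-0.60 ± 0.18 SE, adjusted p = 0.03222). That call at 0.5 Gy ended without control replicate 1, 3 or 4 and without 0.5 Gy replicate 1, 3 or 4, with adjusted p up to 0.137.

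Il7r (probe set 1448575_at) encodes the alpha chain of the interleukin-7 receptor. Its levels were 6.42, 5.80, 6.03 and 5.75 in 3.0 Gy mice, against 8.61, 7.85, 8.16, 8.51 and 7.33 in control mice. The difference was -2.10 ± 0.26 (SE, adjusted p = 1.981e-06) with no overlap. Il7r differed least from control at 0.5 Gy (-0.07 ± 0.26 SE, adjusted p = 0.9292), with levels of 7.88, 8.52, 7.98 and 7.73. At 1.0 Gy its levels were 8.46, 7.67, 7.27 and 8.05 (-0.23 ± 0.26 SE, adjusted p = 0.6014). The 95% intervals of the differences were -0.60 to 0.47 at 0.5 Gy and -0.77 to 0.30 at 1.0 Gy. A second Il7r probe set, 1448576_at, gave -1.97 ± 0.25 at 3.0 Gy (SE, adjusted p = 3.681e-06 in a fit over 20445 probe sets).

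Lef1 (probe set 1454734_at) encodes a DNA-binding factor that acts with beta-catenin and keeps naive T cell genes active. Its levels were 5.41, 6.20, 5.74 and 5.76 in 3.0 Gy mice, against 7.91, 7.13, 7.29, 7.62 and 6.84 in control mice (-1.58 ± 0.23 SE, adjusted p = 1.444e-05). Every 3.0 Gy level lay below every control. Lef1 levels were 7.21, 7.75, 7.05 and 6.91 at 0.5 Gy and 7.71, 6.89, 6.69 and 7.15 at 1.0 Gy. All but 1.0 Gy replicate 3 lay within the control range. Its differences there were -0.13 ± 0.23 (SE, adjusted p = 0.8224) and -0.25 ± 0.23 (SE, adjusted p = 0.532). The other Lef1 probe set, 1421299_a_at, gave -1.52 ± 0.20 at 3.0 Gy (SE, adjusted p = 5.442e-06 over 20445 probe sets).

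Klf2 (probe set 1448890_at) encodes a zinc finger factor of quiescent lymphocytes, and is also used in monocytes and in the cells that line vessels. Its levels were 7.70, 7.98, 7.14 and 7.34 in 3.0 Gy mice, against 9.50, 8.90, 9.11, 9.39 and 8.85 in control mice (-1.61 ± 0.21 SE, adjusted p = 4.927e-06). The groups did not overlap. Klf2 stood at 8.45, 9.29, 8.62 and 8.73 at 0.5 Gy and at 9.08, 9.08, 8.20 and 8.79 at 1.0 Gy, and its differences from control were alike in size there, -0.38 ± 0.21 (SE, adjusted p = 0.3302) and -0.36 ± 0.21 (SE, adjusted p = 0.2847).

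Cd27 (probe set 1452389_at) encodes a receptor of the tumour necrosis factor receptor family that binds CD70 and supports T cell survival. It was the dimmest of the 8 readings, with levels of 3.45, 3.69, 3.01 and 3.37 in 3.0 Gy mice, against 5.06, 4.49, 4.95, 5.39 and 4.52 in control mice (-1.50 ± 0.25 SE, adjusted p = 6.248e-05). At 3.0 Gy 1 of 4 readings lay above the median of its own array. At 0.5 Gy its levels were 4.42, 4.74, 4.09 and 4.08 (-0.55 ± 0.25 SE, adjusted p = 0.2015), and at 1.0 Gy they were 4.79, 3.94, 3.21 and 4.17 (-0.85 ± 0.25 SE, adjusted p = 0.02248). At 1.0 Gy Cd27 no longer passed when control replicate 4, 1.0 Gy replicate 2 or 1.0 Gy replicate 3 was left out, with adjusted p up to 0.0864.

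Cd28 (probe set 1417597_at) encodes the main costimulatory receptor of T cells, which binds CD80 and CD86. Its levels were 5.41, 5.18, 6.01 and 5.92 in 3.0 Gy mice, against 6.62, 6.10, 6.29, 6.71 and 5.54 in control mice, and the groups overlapped through control replicate 5. The difference of -0.62 ± 0.23 passed narrowly (SE, adjusted p = 0.03485). That call ended without control replicate 1, 3 or 4 and without 3.0 Gy replicate 1 or 2, with adjusted p up to 0.1185, and after a repeated quantile normalization (-0.42, adjusted p = 0.09553). The second Cd28 probe set, 1437025_at, fell by 0.68 ± 0.19 on the log2 scale (SE, adjusted p = 0.006805 over 20445 probe sets). Cd28 was also the gene of the 8 whose mean stood above the control mean at the lower doses. Its levels were 6.32, 6.72, 6.54 and 6.21 at 0.5 Gy (0.19 ± 0.23 SE, adjusted p = 0.7161) and 6.93, 6.07, 6.19 and 6.76 at 1.0 Gy (0.24 ± 0.23 SE, adjusted p = 0.5536), and neither passed.

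Btla (probe set 1455656_at) encodes an inhibitory receptor for the herpesvirus entry mediator, carried by B cells as well as T cells. Its levels were 5.41, 6.41, 4.92 and 5.01 in 3.0 Gy mice, against 9.57, 8.82, 9.19, 9.52 and 8.72 in control mice (-3.73 ± 0.29 SE, adjusted p = 2.165e-08). Every 3.0 Gy level lay below every control, and the difference was the 6th lowest of all 12696 genes. By the same order Ccr7 was 63rd, S1pr1 121st and Il7r 161st from the lowest, and Cd28 was 2544th. At 0.5 Gy Btla levels were 7.98, 9.25, 8.12 and 8.71 (-0.65 ± 0.29 SE, adjusted p = 0.193). At 1.0 Gy they were 8.10, 8.63, 8.01 and 8.55, all below every control (-0.84 ± 0.29 SE, adjusted p = 0.05374). Btla was called at 1.0 Gy without control replicate 2 or 5, 0.5 Gy replicate 1 or 2, or 3.0 Gy replicate 2 or 3 (adjusted p down to 0.017), and with only the arrays compared (adjusted p = 0.0108). At 1.0 Gy Btla and S1pr1 were the genes of the 8 without overlap with control, where 6.38% of all genes had none.

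**Figure D2:**
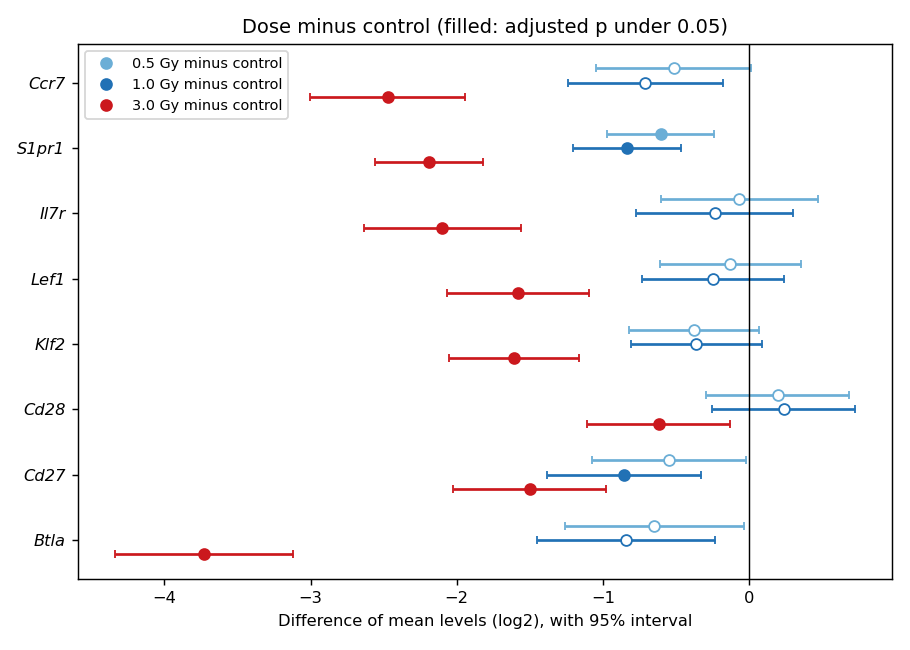
Difference of the mean log2 level from control (x axis) for each gene (y axis) at 0.5, 1.0 and 3.0 Gy, with 95% intervals from limma; filled points have an adjusted p under 0.05. The 3.0 Gy differences run from -3.73 for Btla to -0.62 for Cd28 and all are filled, while 1 is filled at 0.5 Gy and 2 at 1.0 Gy.

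Set against each other, the doses separated between 1.0 and 3.0 Gy. Of the 8 genes 7 were called lower at 3.0 Gy than at 1.0 Gy (background 22.7%), and 7 did not overlap (background 18.3%). Btla differed most (-2.89 ± 0.31 SE, adjusted p = 5.163e-06), and Cd27 was the gene that did not pass (-0.65 ± 0.26 SE, adjusted p = 0.05933). Against 0.5 Gy, 8 of 8 were called lower at 3.0 Gy (background 20.9%) and 8 of 8 did not overlap (background 20.1%). The call of Cd28 there ended without 0.5 Gy replicate 2 (adjusted p = 0.0558), and that of Cd27 against 1.0 Gy was gained without 1.0 Gy replicate 3 (adjusted p = 0.005067) or 3.0 Gy replicate 2 (adjusted p = 0.0431). Between 1.0 and 0.5 Gy limma called 0 of 8 genes, 0 had an unadjusted p under 0.05, and 0.0158% of all genes were called. The differences there ran from -0.31 for Cd27 to 0.04 for Cd28. A slope fitted on the dose in Gy was below 0 for 8 of 8 called genes (background 27.5%), from -1.24 log2 units per Gy for Btla to -0.24 for Cd28. The slope of Cd28 was no longer called without 3.0 Gy replicate 1 or 2 (adjusted p up to 0.0996).

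The group means were ordered by dose, with control highest and 3.0 Gy lowest, in Ccr7, Il7r, Lef1, S1pr1, Cd27 and Btla. In Klf2 the 1.0 Gy mean of 8.79 lay above the 0.5 Gy mean of 8.77, and in Cd28 the 0.5 Gy mean of 6.44 and the 1.0 Gy mean of 6.49 lay above the control mean of 6.25. The differences between 0.5 and 1.0 Gy did not pass the test in any of the 8 genes.

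Within a group the genes tended to be high or low in the same mice. Among the controls, replicates 1 and 4 stood above the group mean in 8 of 8 genes and replicates 2 and 5 in 0 of 8. Replicate 2 of the 0.5 Gy group was the highest of its group in 8 of 8 genes. At 1.0 Gy replicate 1 was highest in 6 of 8 and replicate 3 lowest in 6 of 8, and at 3.0 Gy replicate 2 was highest in 5 of 8 and replicate 3 lowest in 5 of 8. The mean level of the 4 CD3 chains, the invariant signalling part of the T cell receptor, was also highest in these replicates at 0.5 Gy (7.62) and 1.0 Gy (7.75) and lowest in replicate 3 at 1.0 Gy (6.77) and at 3.0 Gy (5.90). At 3.0 Gy it was highest in replicate 1 (6.23), not in replicate 2 (6.18). In the controls it was 8.38 and 8.12 in replicates 4 and 1, and 7.43 and 7.49 in replicates 2 and 5.

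**Figure D3:**
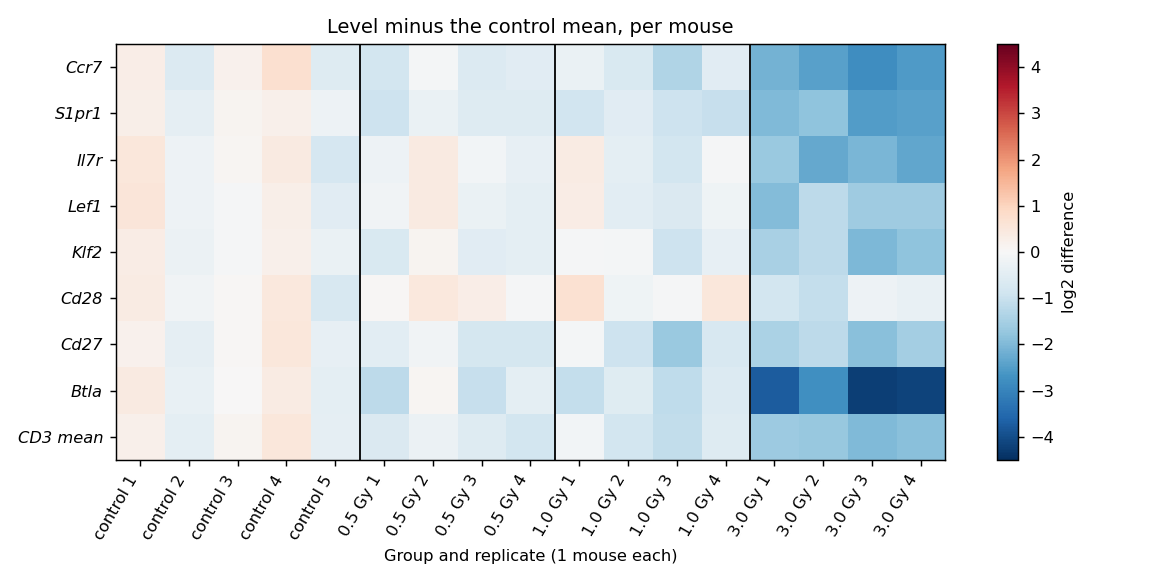
Level minus the control mean (log2, colour) of the 8 genes and of the mean of 4 CD3 chains (rows) in each of the 17 mice (columns, by group and replicate). The 3.0 Gy columns are the darkest blue, most of all for Btla, and within a group the genes and CD3 tend to be high or low in the same mice.

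The 8 genes were next set against CD3, to ask whether each changed by another amount than the T cell receptor did. The CD3 mean was 6.08 ± 0.15 at 3.0 Gy and 7.88 ± 0.41 in controls, and for each gene the CD3 mean of the same array was subtracted before the fit over all 12696 genes. At 3.0 Gy Btla fell further than CD3, with a relative difference of -1.92 ± 0.27 (SE, adjusted p = 2.067e-08), and so did Ccr7, with -0.67 ± 0.23 (SE, adjusted p = 0.005257). Cd28 fell less, with a relative difference of 1.18 ± 0.24 (SE, adjusted p = 2.068e-05). These 2 genes lower than CD3 compare with 0.654% of all genes called lower, and the 1 higher with 93.6% called higher, since CD3 itself fell. B cells also carry Btla and Ccr7, so a CD3 baseline cannot tell changes within T cells from changes in B cell RNA.

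The other 5 genes did not pass this test at 3.0 Gy. Il7r had a relative difference of -0.30 (95% interval -0.76 to 0.17), S1pr1 -0.39 (-0.87 to 0.10), Klf2 0.19 (-0.28 to 0.67), Lef1 0.22 (-0.25 to 0.69) and Cd27 0.30 (-0.15 to 0.76). With the mean of all probe sets of a gene in place of the brightest, Il7r (-0.51, adjusted p = 0.0139) and S1pr1 (-0.66, adjusted p = 0.00254) were called lower than CD3. The chains did not move alike, with -2.26 for Cd3d, -2.27 for Cd3g, -2.04 for Cd247 and -0.64 for Cd3e. With Cd3e left out, a choice made after the data were seen, Btla stayed lower (-1.54, adjusted p = 2.184e-06) and Cd28 higher (1.57, adjusted p = 4.185e-07). The call of Ccr7 then ended (-0.28, adjusted p = 0.269), and Cd27, Lef1 and Klf2 were called higher (0.69, 0.61 and 0.58). With Cd5, Cd6, Cd2 and Thy1 as the baseline, also chosen afterwards, Btla (-2.10), Ccr7 (-0.85), S1pr1 (-0.56) and Il7r (-0.47) were called lower. Cd28 (1.01) was called higher with it. The share of all genes called with these baselines or with the mean of all probe sets was not counted.

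**Figure D4:**
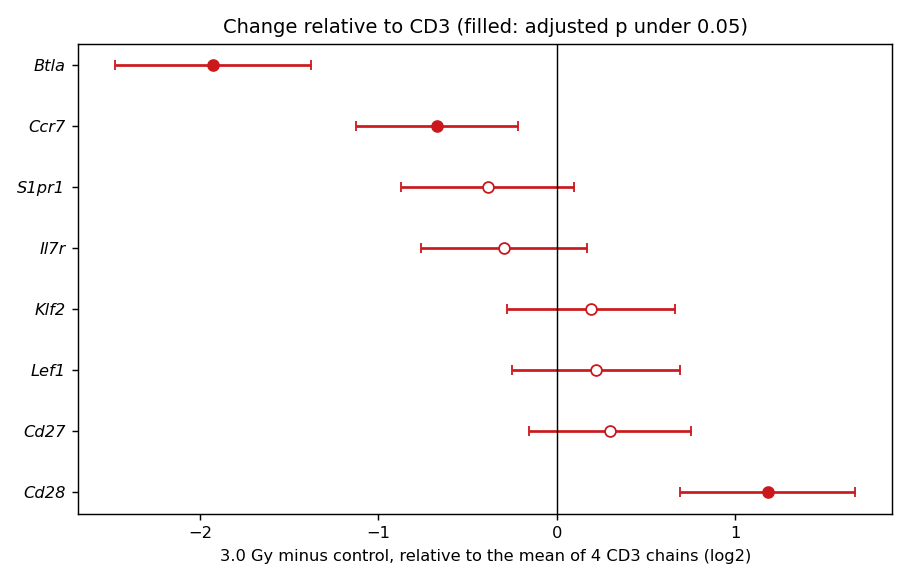
Difference of 3.0 Gy minus control relative to the mean of 4 CD3 chains (log2, x axis) for each gene (y axis), with 95% intervals from limma; filled points have an adjusted p under 0.05. Btla and Ccr7 lie below 0, Cd28 lies above it, and the intervals of the other 5 genes include 0.

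At the lower doses Cd28 was the gene of the 8 that was called relative to CD3. Its relative difference was 0.77 ± 0.24 at 0.5 Gy (SE, adjusted p = 0.02317) and 0.89 ± 0.24 at 1.0 Gy (SE, adjusted p = 0.004754). At both doses its relative level lay above the control range in 4 of 4 mice. So did Il7r at 0.5 Gy (0.51, limma adjusted p = 0.07093) and Lef1 at 1.0 Gy (0.41, limma adjusted p = 0.117), without a call. The median relative difference over all genes was 0.56 at 0.5 Gy and 0.61 at 1.0 Gy, above these values of Il7r and Lef1. The share of all genes without overlap on this scale was not counted, so these positions cannot be set against it. Called higher relative to CD3 were 28.5% of all genes at 0.5 Gy and 51.2% at 1.0 Gy. At 0.5 Gy Cd28 no longer passed when control replicate 3 or 0.5 Gy replicate 1, 3 or 4 was left out (adjusted p up to 0.0733). Both calls ended with Cd5, Cd6, Cd2 and Thy1 as the baseline (adjusted p = 0.0873 at 0.5 Gy and 0.1149 at 1.0 Gy).

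For each gene the 3 others with the most similar profile were found by the mean absolute difference of standardised levels over the 17 arrays, among 12688 genes. The median of that measure lay between 1.15 and 1.20. Btla was most like H2-Ob, the beta chain of the MHC class II regulator H2-O in B cells (0.0975), Ighv14-2, an immunoglobulin heavy chain segment whose probe set can bind relatives (0.115), and Hvcn1, a proton channel of B cells (0.123). At 3.0 Gy the differences were -4.66 ± 0.36 for H2-Ob, -5.10 ± 0.33 for Ighv14-2 and -3.36 ± 0.26 for Hvcn1 (SE). S1pr1 was most like Dnajc9, a co-chaperone (0.129), Snrpd3, a spliceosome protein (0.132), and Cd79a, a signalling chain of the B cell receptor (0.152).

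Ccr7 was most like Rnf145, a ubiquitin ligase (0.0999), Cd8b1, the beta chain of CD8 (0.123), and Ms4a6b (0.128). The difference of Cd8b1 at 3.0 Gy was -3.36 ± 0.26 (SE). Il7r was most like Trav9d-3, a variable segment of the T cell receptor alpha chain read by a probe set that can bind relatives (0.143), Plcxd2 (0.156) and Heca (0.158). Cd27 was as close to Cd3d as to Ppp4c, a phosphatase subunit (0.212 each), and next to Txndc15 (0.230).

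Klf2 was most like Tbc1d10c (0.108), Ltb, which encodes lymphotoxin beta (0.119), and Ttc13 (0.120). Lef1 was most like Ddx10, an RNA helicase (0.172), Mdn1, a ribosome assembly ATPase (0.181), and Apeh (0.188). Cd28 had the loosest neighbours, Ttc9c (0.301), Washc4 (0.317) and St8sia1 (0.330). Within the 8 genes the closest pairs were Btla with S1pr1 (0.191) and Il7r with Lef1 (0.216).

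The rest of the T cell programme was read from lists of known genes. Of all genes tested, 5% were called lower and 5.24% higher at 0.5 Gy, and 8.49% and 8.8% at 1.0 Gy. At 3.0 Gy these shares were 29.2% and 20%. Of 18 genes of the T cell receptor and of T cells in general, 14 fell and 0 rose at 3.0 Gy, with a median of -0.99. Cd8b1 stood at 4.34 ± 0.32 at 3.0 Gy and 7.70 ± 0.56 in controls, and Thy1, a surface protein of mouse T cells, at 5.03 ± 0.50 and 7.13 ± 0.36. Of this list 2 genes fell at 0.5 Gy, Cd3d (-0.94 ± 0.25 SE, adjusted p = 0.01825) and Cd3g (-0.68 ± 0.21 SE, adjusted p = 0.04162). At 1.0 Gy 3 fell, Cd3d, Cd3g and Cd8b1 (-1.11, -0.93 and -1.14).

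Transcription partners of naive T cells fell at 3.0 Gy in 11 of 16 genes (background 29.2%) and rose in 0, with a median of -0.95. The smallest p-values were those of Ets1, an ETS factor of lymphocytes (-3.06 ± 0.28 SE, adjusted p = 7.934e-08), and Bach2, a repressor of effector genes in B and T cells (-2.98 ± 0.33 SE, adjusted p = 6.335e-07). The chromatin organiser Satb1 (-2.55 ± 0.34) and the forkhead factor Foxp1 (-1.84 ± 0.26) fell too. At 0.5 Gy limma called 0 of 16, with 2 at an unadjusted p under 0.05, and at 1.0 Gy 1 fell, the DNA-binding inhibitor Id3 (-0.66 ± 0.22 SE, adjusted p = 0.04113).

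Homing and egress partners moved both ways. At 3.0 Gy 11 of 19 fell and 4 rose, with a median of -0.66. The share that rose was near the 20% over all genes, and the share that fell was above the 29.2%. S1pr4, a further receptor for sphingosine 1-phosphate, fell (-1.37 ± 0.16 SE, adjusted p = 1.277e-06), as did Coro1a, a regulator of actin in T cells (-1.62 ± 0.24 SE, adjusted p = 2.042e-05). Arrb1, a beta-arrestin (1.69 ± 0.18 SE), and Rasgrp2, an activator of the small G protein Rap1 that is abundant in platelets (1.43 ± 0.15 SE), rose. At 0.5 Gy 4 rose and 1 fell, and at 1.0 Gy 5 rose and 1 fell. S1pr4 was the one that fell at both doses (-0.66 ± 0.16 SE, adjusted p = 0.01142 at 0.5 Gy, and -0.76 ± 0.16 SE, adjusted p = 0.002093 at 1.0 Gy).

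Genes of interleukin-7 signalling and survival other than Il7r were mostly not called. At 3.0 Gy 5 of 18 fell and 0 rose, with a median of -0.25, and the share that fell was near the 29.2% over all genes. These included the kinases Pim1 (-0.49 ± 0.14 SE, adjusted p = 0.00569) and Pim2 (-0.45 ± 0.12 SE, adjusted p = 0.004335), the interleukin-4 receptor chain Il4ra (-0.60 ± 0.14) and Il6st, the shared signal chain of the interleukin-6 family (-1.32 ± 0.32). Jak1, the kinase bound to IL7R, was called higher at 0.5 Gy (0.89 ± 0.20 SE, adjusted p = 0.006994) and 1.0 Gy (0.91 ± 0.20 SE, adjusted p = 0.002939). At 0.5 Gy it was the 1 gene of the list that was called. At 1.0 Gy Pik3r1, a regulatory subunit of PI3-kinase, rose as well (0.56 ± 0.19) and Pim1 fell (-0.41 ± 0.14).

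Ligands and signal partners of costimulation had 5 of 18 genes lower and 4 higher at 3.0 Gy, with a median of -0.02, near the shares over all genes of 29.2% lower and 20% higher. Traf5, an adaptor used by CD27 and related receptors, fell (-0.73 ± 0.15 SE, adjusted p = 0.0004249). Ptpn11, a phosphatase that binds inhibitory receptors such as BTLA and is made in many cell types, rose (1.75 ± 0.17 SE, adjusted p = 1.728e-07), as did Tnfsf14 (1.13 ± 0.17), a ligand of the herpesvirus entry mediator, and Cd80 (0.47 ± 0.09), a ligand of CD28. At 0.5 Gy 1 rose, Ptpn11, and 2 fell, Siva1 (-0.52 ± 0.16) and Tnfrsf18 (-0.50 ± 0.14). At 1.0 Gy 3 rose, Ptpn11, Cd80 and Tnfsf14, and 2 fell, again Siva1 (-0.66 ± 0.16) and Tnfrsf18 (-0.44 ± 0.14).

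Of 13 genes of effector and memory T cells, 3 fell and 1 rose at 3.0 Gy, with a median of -0.25. Both shares lay below those over all genes, 29.2% lower and 20% higher. Ccl5, a chemokine of effector cells (-0.64 ± 0.20 SE, adjusted p = 0.01114), Cxcr6 (-0.62 ± 0.18) and S100a4 (-1.05 ± 0.25) fell, and Cd44, an adhesion receptor of memory T cells and of myeloid cells, rose (1.71 ± 0.13 SE, adjusted p = 2.165e-08). At 0.5 Gy 1 rose, Cd44 (1.15 ± 0.13), and 2 fell, Ccl5 (-0.70 ± 0.20) and S100a4 (-1.05 ± 0.25). At 1.0 Gy 2 rose, Cd44 (1.65 ± 0.13) and Tbx21 (0.57 ± 0.18), and 1 fell, S100a4 (-1.13 ± 0.25).

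**Figure D5:**
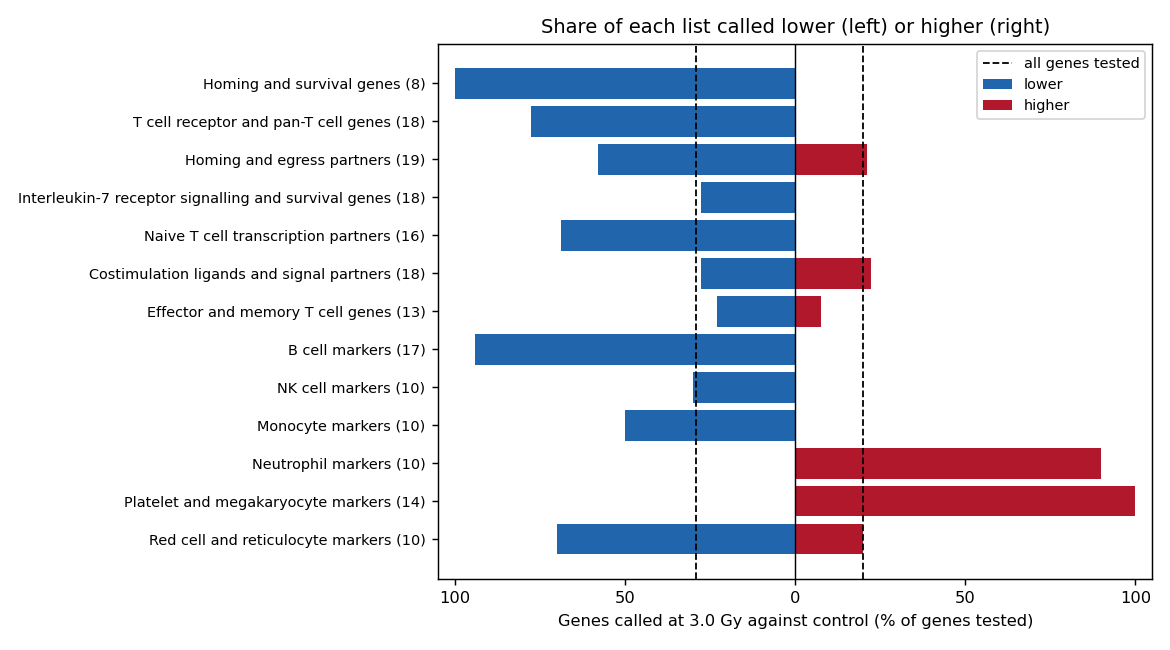
Share of genes called at 3.0 Gy against control (percent of genes tested, x axis), lower to the left and higher to the right of 0, for the 8 genes and each list (y axis, number tested in brackets); dashed lines are the shares over all genes, 29.2% lower and 20% higher. The 8 genes and the B cell markers have the largest shares of lower calls, and platelet and neutrophil markers the largest shares of higher calls.

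Markers of other blood cells moved in the same arrays. Of 17 B cell markers 16 fell (background 29.2%) and 0 rose at 3.0 Gy, with a median of -2.90. The mean level of this list ran from 4.85 to 6.20 in 3.0 Gy mice and from 7.57 to 8.29 in controls. Among them were Fcmr, the receptor for immunoglobulin M (-3.64 ± 0.30 SE), Cd72 (-2.90 ± 0.23), Fcer2a (-2.87 ± 0.21) and Cd79a (-2.56 ± 0.23). At 0.5 and 1.0 Gy 1 B cell marker fell (background 5% and 8.49%), Cd79a (-0.79 ± 0.23 SE, adjusted p = 0.0376, and -0.87 ± 0.23 SE, adjusted p = 0.01321).

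All 14 platelet and megakaryocyte markers tested rose at every dose, where 5.24% of all genes were called higher at 0.5 Gy, 8.8% at 1.0 Gy and 20% at 3.0 Gy, with a median difference of 1.20 (0.5 Gy), 1.65 (1.0 Gy) and 1.85 (3.0 Gy). The platelet glycoprotein Gp5 rose by 2.22 ± 0.18 at 3.0 Gy (SE, adjusted p = 2.731e-08). Neutrophil markers rose in 9 of 10 genes at 3.0 Gy, with a median of 1.14 and Slfn4 highest among those named (3.58 ± 0.31). At 0.5 Gy 1 rose, Slfn4, and at 1.0 Gy 2 rose, Slfn4 and Hdc, and 1 fell, S100a8. Red cell markers fell in 7 (background 29.2%) and rose in 2 (background 20%) of 10 at 3.0 Gy, with Slc4a1 at -2.51 ± 0.23. At 0.5 Gy 3 fell (background 5%), Car2 (-1.01 ± 0.20), Epb42 and Trim10. At 1.0 Gy 4 fell (background 8.49%), these and Slc4a1.

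NK cell markers fell in 3 of 10 at 3.0 Gy, Klrd1 (-1.44 ± 0.28), Nkg7 (-0.67 ± 0.18) and Txk (-0.59 ± 0.22). That share was near the 29.2% over all genes, and the median of the list was -0.006. At 0.5 Gy limma called 0 of 10, with 2 at an unadjusted p under 0.05, and at 1.0 Gy Gzmb rose and Klrd1 fell. Monocyte markers fell in 5 of 10 at 3.0 Gy, among them Ccr2 (-1.52 ± 0.19). At 0.5 Gy 2 fell, Treml4 and Adgre4, and at 1.0 Gy Treml4 fell and Ms4a6d rose. The part of these other cells in the falls of the 8 genes was not tested. In controls the CD3 mean and the mean of the B cell list lay above the array medians, which ran from 3.47 to 3.57 over the 17 arrays.

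A control reading also moved with the lower doses. Probe sets for 18S ribosomal RNA averaged 10.52 ± 0.49 in control mice, 12.69 ± 0.77 in 0.5 Gy mice, 13.28 ± 0.28 in 1.0 Gy mice and 10.68 ± 0.14 in 3.0 Gy mice. With this level in the fit, 8 of 8 genes were still called lower at 3.0 Gy, with differences from -3.81 for Btla to -0.59 for Cd28, while 0 of 8 were called at 0.5 Gy, at 1.0 Gy, or at 3.0 Gy against either lower dose. Of all 12696 genes that fit called 6277 in either direction at 3.0 Gy against control, 557 at 0.5 Gy and 606 at 1.0 Gy. It called 0 at 3.0 Gy against 1.0 Gy and 95 against 0.5 Gy. The median difference of the 8 genes in that fit was -0.59 at 0.5 Gy (-0.45 without the covariate) and -0.78 at 1.0 Gy (-0.53 without it). It was -1.36 at 3.0 Gy against 1.0 Gy (-1.34 without it) and -1.39 against 0.5 Gy (-1.52 without it). The median standard error of the 8 differences at 1.0 Gy was 0.64 with the covariate and 0.24 without it.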

How the data were processed

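Blood RNA of 17 mice was read on Affymetrix mouse arrays, 1 per mouse. Values as deposited are log2 levels of 45101 probe sets, made with RMA and R 3.3.2 per the submitters' processing notes. No source used here gives RMA settings or signal over background. RMA can pull dim probe sets towards background and so understate falls of weak genes, which was not tested in these data. The number of arrays limits the precision.

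Platform annotation gave 34945 probe sets a single symbol. A gene was read from its probe set with the highest mean and kept when it lay above its array's 50th percentile in at least 4 arrays. limma 3.58.1 in R 4.3.3 (lmFit, eBayes) fitted 4 group means over all arrays, or a slope on dose. Tests were two-sided with Benjamini-Hochberg adjustment over 12696 genes and a threshold of 0.05, and were checked on simulated data.

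The genes and lists were chosen with earlier results of these data known. Beside the 8 genes, each list's up to 4 genes with the smallest p at 3.0 Gy, sparse calls at the lower doses and the 3 nearest profiles were named by rule. Of 198 list genes 171 were tested. The Cd3 chains, Cd5, Cd6, Cd2 and genes contrasted in the closing section were named for their use as a baseline or after their values were seen. The labels do not state that replicate numbers pair mice, so equal numbers were not treated as pairs. Same-numbered deviations from group means correlated above 0.1 in 11 of 24 pairs of groups and numbers, across genes. Differently numbered mice were not compared, so this check cannot decide on pairing. No 2 arrays held identical values.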

Additional observations from a re-analysis of the deposited data

Results flagged for a closer look

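No mouse stood apart from its group by Dixon's criterion in any of the 32 combinations of gene and group. The control probe sets for 18S ribosomal RNA, which are no part of the gene comparisons, lay above the whole control range (highest control 11.19) in every mouse at 0.5 Gy, with a mean of 12.69, and at 1.0 Gy, with a mean of 13.28.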

How the results depend on the processing

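Of 2030 single-gene values under other settings, 1950 kept their side of the threshold, 34 passed it newly and 46 no longer passed. The sign turned in 50 of the 1950, none of them called, and in 0 of the others. Of 8 genes, 8 were called at 3.0 Gy against control, and 7 to 8 when each mouse was left out in turn. At 1.0 Gy the 2 calls became 4 after a repeated quantile normalization and 4 with a replicate block (Btla and Ccr7 were added), all lower. They became 0 with the 18S level as a covariate. Of all 12696 genes these fits called 2405, 2032 and 606 in either direction, and the main fit called 2195. The calls of the 8 genes at 1.0 Gy ran from 1 to 4 when a mouse was left out. Control replicate 5 alone has that number, so the block takes it out of the group differences. With the block Btla (-0.95) and Ccr7 (-0.85) had the same differences as without that mouse. At 0.5 Gy the 1 call became 0 with 18S and ran from 0 to 1 when a mouse was left out. With 18S, 0 genes were called for 3.0 Gy against 1.0 Gy and 0 against 0.5 Gy, with median differences of -1.36 and -1.39 (-1.34 and -1.52 without 18S) and median standard errors of 0.61 and 0.50 (0.25 without it). That fit called 0 and 95 of all 12696 genes. Relative to CD3, the 1 call at 0.5 Gy became 2 after repeated quantile normalization, 0 with 18S, 0 with the Cd5, Cd6, Cd2 and Thy1 baseline and 3 without Cd3e, and ran from 0 to 2 when a mouse was left out. At 1.0 Gy the 1 call became 2 with the mean of all probe sets, 0 with 18S, 0 with the Cd5, Cd6, Cd2 and Thy1 baseline and 3 without Cd3e. At 3.0 Gy the 3 calls became 5 with the mean of all probe sets (4 lower, 1 higher). They became 5 with the Cd5, Cd6, Cd2 and Thy1 baseline (4 lower, 1 higher) and 5 without Cd3e (1 lower, 4 higher). Both baselines were chosen after seeing the data. Every call at 0.5 and 1.0 Gy without Cd3e was higher than CD3. The share of all genes called in these refits relative to CD3 was not counted. Where no construction is named, the cause was not tested. Signal over background is not given, which limits Cd27, the dimmest gene: it fails a filter at the 75th percentile.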

Other observations

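Chains that belong to the same receptor did not read alike at 3.0 Gy. Cd8b1 differed by -3.36 ± 0.26 on the log2 scale (SE), while Cd8a, the other chain of CD8, stood at 6.77 ± 0.08 at 3.0 Gy and 6.78 ± 0.07 in controls (-0.01 ± 0.10 SE, adjusted p = 0.9228, limma). Cd4 stood at 5.84 ± 0.07 at 3.0 Gy and 5.96 ± 0.18 in controls (-0.13 ± 0.11 SE, adjusted p = 0.3253, limma), and Cd3e fell by 0.64 ± 0.16, against 2.26 ± 0.25 for Cd3d. Bcl2, a survival gene, stood at 6.63 ± 0.21 at 3.0 Gy and 6.72 ± 0.24 in controls (-0.09 ± 0.15 SE, adjusted p = 0.6399, limma), while Mcl1, another survival gene, fell by 0.95 ± 0.27 (SE, adjusted p = 0.006752, limma). Foxo1, a forkhead factor that drives Il7r, Ccr7 and Klf2, fell by 1.05 ± 0.22 (SE, adjusted p = 0.0006123, limma). Cd69, which removes S1PR1 from the surface of activated lymphocytes, fell by 2.06 ± 0.35 (SE, adjusted p = 8.192e-05, limma). These genes were chosen after their values were seen. Cd8a, Bcl2 and Mcl1 were each read by a probe set that can bind relatives. Their values need not come from the named gene alone, and this was not tested.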
